A study of Homo sapiens with 30 samples.

Results

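The comparison described here is that of arsenite-treated with untreated cytosol RNA in human cells that make a disease form of the RNA-binding protein TIA1. It rests on 6 of the 30 libraries of the series, chosen by their labels, 3 with arsenite (Cytosol_WDM_tet_ars) and 3 without (Cytosol_WDM_tet). The cells are a derivative of Flp-In T-REx HEK293, an established human embryonic kidney line in which a tetracycline-inducible transgene is inserted at a single prepared locus. The transgene is GFP fused to the TIA1a isoform with the Welander distal myopathy mutation (WDM), a hereditary muscle disease of late onset. Both groups carry the transgene and received tetracycline, and the treated group was also exposed to 0.5 mM sodium arsenite (NaAsO2) for 60 min. Per the labels, stranded total-RNA libraries were made after removal of ribosomal RNA. Used beside this comparison are 3 WDM cytosol libraries without tetracycline or arsenite. Also used are 6 cytosol libraries of the line with wild-type GFP-TIA1a (WT), all given tetracycline, with and without arsenite. A further 3 WT cytosol libraries without tetracycline or arsenite entered the joint fit of 18 cytosol libraries and the means and filters taken over them. Each line is 1 engineered derivative in which the fusion protein is made besides the cell's own TIA1. HEK293 is not a muscle cell. Nothing in the labels says that replicates came from separate cultures, so p-values measure only the spread between these libraries, which may be technical.

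Arsenite binds thiol groups of proteins and causes oxidative and proteotoxic stress. The cell then blocks translation initiation by phosphorylating eIF2alpha, and mRNAs released from ribosomes gather with TIA1 and other proteins in stress granules. Stress-activated MAP kinases switch on immediate-early genes, which need no new protein synthesis, while the transcription factors HSF1, NRF2 and MTF1 drive genes for chaperones, antioxidant enzymes and metallothioneins.

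The 3 libraries without arsenite held 7971585, 10815398 and 18884843 counts, and those with arsenite 15240026, 16761512 and 13295864. A count of 0 allows up to 3 counts, or 0.159 to 0.376 CPM (counts scaled to library size), which covers counting error only. On the first principal component, with 55.2% of the variance, the 3 arsenite libraries lay apart from the other 3. The library without arsenite numbered replicate 2 stood apart from its group. It had the lowest summed level of 7 nuclear-retained noncoding RNAs (511 CPM, against 976 and 833 in replicates 1 and 3, and 985 to 1380 with arsenite). It also had the highest summed level of ribosomal protein genes, 59440 CPM against 55000 and 46680 in its group. TIA1 itself could not serve to check the labels, because it had no counts in any of the 6 libraries and 99.3% of its exon length lies inside the span of another gene on the same strand. Of 1301 protein-coding genes placed in this way, 827 (63.6%) had no counts in 18 cytosol libraries, against 883 of 8779 (10.1%) without overlap, so such genes are listed at 0 here without a reading of their level. The epithelial keratins KRT8 and KRT18 stood at 123 and 106 CPM without arsenite and the mesenchymal filament gene VIM at 763. The kidney factors PAX8 and PAX2 were at 0.0595 and 2.99 CPM. Of the markers of blood cells, the T-cell gene CD3E and the erythroid gene HBB had no counts. The leukocyte gene PTPRC was at 0.15 CPM without arsenite and 0.0469 with it, and the monocyte gene CD14 at 0.326 and 1.12. Other markers were counted more. Without arsenite the fibroblast genes COL3A1, LUM and COL1A1 were at 7.69, 4.21 and 2.34 CPM, but COL1A2 and DCN at 0.0418 and 0.218. The neurofilament gene NEFL was at 141 CPM and NEFM at 0.134. The part of these markers in the results was not tested.

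**Figure D1:**
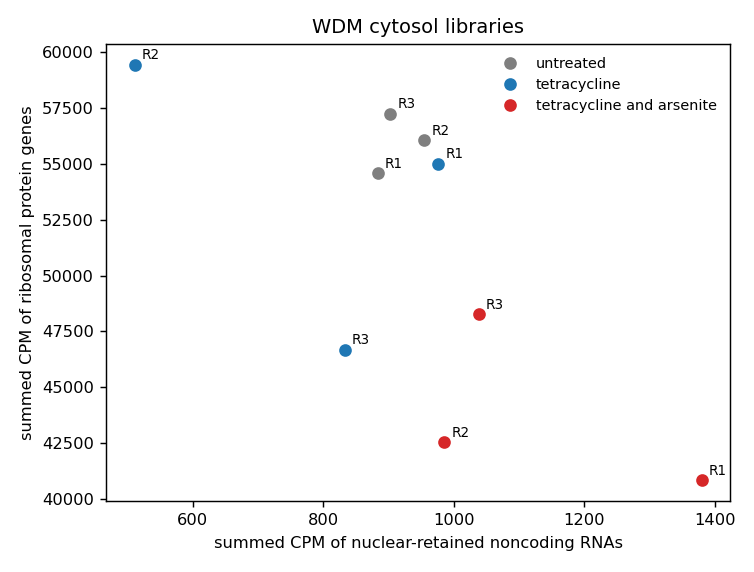
Each point is 1 WDM cytosol library (grey untreated, blue tetracycline, red tetracycline and arsenite), with the summed CPM of 7 nuclear-retained noncoding RNAs on the horizontal axis and the summed CPM of 74 ribosomal protein genes on the vertical axis. The tetracycline library R2 sits at the upper left, at 511 and 59440 CPM, and the 3 arsenite libraries at the right, between 40840 and 48270 CPM of ribosomal protein RNA.

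Arsenite changed the level of a large part of the cytosol RNA within 60 min, with rises that were larger than the falls. Among 16670 genes tested with edgeR, 2345 (14.1%) were called higher and 2459 (14.8%) lower at an adjusted p under 0.05. With a further threshold of 1 on the log2 fold change, 647 genes (3.88%) were called higher and 53 (0.318%) lower. The median log2 fold change over all tested genes was -0.00. Scaling by library size alone gave 3051 higher and 1513 lower genes, a share of 66.9% higher against 48.8%. Without tetracycline replicate 2 the number called fell from 4804 to 2490, with 494 higher and 30 lower by a log2 of at least 1. Without arsenite replicate 1 it was 2920.

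The rises with the largest fold changes among well-counted genes were those of immediate-early transcription factors. EGR1, a zinc-finger factor of the first response to growth factors and stress (chromosome 5, 138465479 to 138469303), had 1.76, 1.66 and 1.27 CPM without arsenite and 214, 156 and 140 CPM with it. The groups were far apart, with a log2 fold change of 6.73 (SE 0.213) or 106-fold and an adjusted p of 2.79e-14 by edgeR with Benjamini-Hochberg adjustment. FOS, the AP-1 subunit that pairs with JUN proteins, had 2.26, 2.96 and 3.55 CPM without arsenite and 130, 199 and 115 with it. Its log2 fold change was 5.52 (SE 0.266, edgeR adjusted p 3.00e-09). Untreated WDM cells without tetracycline had 2.21 CPM of EGR1 and 3.53 of FOS, which are low levels as well.

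Of 12 tested genes of AP-1 and related bZIP factors, 8 were called higher and none lower, with a median log2 fold change of 0.98. FOSB rose from 1.63, 0.832 and 1.11 CPM to 20.0, 28.5 and 13.7, a log2 fold change of 4.09 (edgeR adjusted p 1.81e-06). The span of FOSB lies wholly opposite another gene, although no exon overlaps. FOSL1, another FOS family member, rose from a mean of 0.780 to 7.21 CPM, and MAFF, a small MAF protein that pairs with other bZIP factors, from 1.80 to 8.55. JUN was already abundant, at 216, 204 and 214 CPM, and stood at 460, 464 and 476 CPM with arsenite, a 2.08-fold rise with groups far apart. JUNB rose 2.77-fold from a mean of 11.3 to 33.2 CPM, ATF3 1.88-fold from 42.2 to 84.5, and JUND had a log2 fold change of 0.56. FOSL2 (0.19), MAFG (0.37), MAFK (0.12) and BATF3 (-0.22), given as log2 fold changes, did not pass the test.

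**Figure D2:**
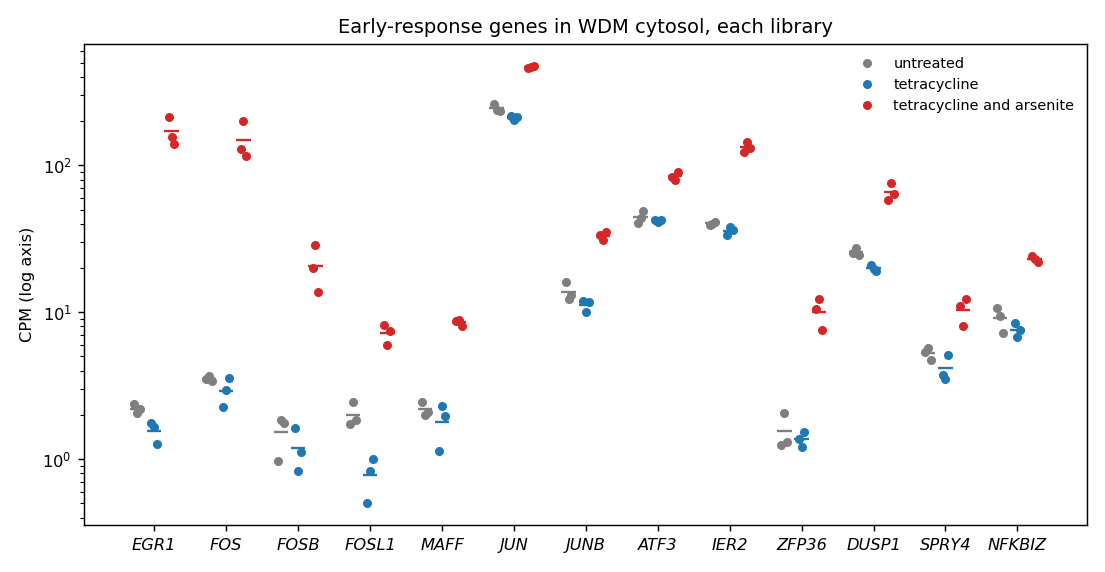
CPM on a log axis for 13 early-response genes in WDM cytosol, where each point is 1 library (grey untreated, blue tetracycline, red tetracycline and arsenite) and each bar the mean of 3. For every gene shown the 3 arsenite libraries lie above the 3 tetracycline libraries, and EGR1 and FOS rise from under 4 CPM to between 115 and 214 CPM.

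Among 18 tested genes of the EGR and serum-response group, 11 were called higher and none lower (median log2 fold change 0.56). EGR3 had 0.502, 0 and 0.212 CPM without arsenite and 4.86, 2.92 and 2.78 with it, and EGR2 rose from a mean of 0.167 to 1.86 CPM, both from levels near the counting floor. EGR3 passed the low-count filter only through the arsenite libraries. IER2, a short intronless early gene, rose from 33.5, 38.2 and 36.2 CPM to 123, 144 and 131, a log2 fold change of 1.79 (SE 0.0966, edgeR adjusted p 2.11e-10). About 52.2% of its exon length lies opposite another gene's exons. CCN1, a secreted matrix protein and a target of YAP and SRF, rose from 7.28, 4.81 and 5.24 CPM to 16.5, 15.8 and 12.8. MCL1, a short-lived antiapoptotic BCL2 relative, rose from a mean of 225 to 368 CPM. The gene of the factor SRF itself had a log2 fold change of 0.01. When only the 6 libraries of this comparison were fitted, 6 genes of the list were called higher.

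Genes that restrain MAP kinase signalling rose along with the factors it induces. Of 14 tested, 9 were called higher and none lower, with a median log2 fold change of 0.54. DUSP1, a phosphatase of p38 and JNK, rose from 21.1, 19.6 and 19.1 CPM to 58.3, 75.8 and 63.9, a log2 fold change of 1.65 (SE 0.109, edgeR adjusted p 4.04e-09). DUSP8, DUSP10, DUSP5 and DUSP6 had log2 fold changes of 0.85, 0.63, 0.62 and 0.71, all called, so phosphatases of JNK and p38 and those of ERK were both among the rises. SPRY4 and SPRED2, which dampen the RAS to ERK pathway, had log2 fold changes of 1.20 and 1.16. SPRY1, SPRY2 and DUSP4 had values of 0.20, 0.18 and 0.01 and did not pass.

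The upstream sequences of a few of these genes hold letters known as binding motifs of stress-activated factors, and are shown because the genes carry the results above and below. They are the 130 bases before the RefSeq start in GRCh38.p14, read 5′ to 3′ on the gene's strand. Capitals mark a CArG box (the site of SRF) in EGR1, the CRE TGACGTCA (the site of CREB and ATF proteins) in DUSP1, MAFF and PPP1R15A, and heat-shock elements in CHORDC1, which overlap each other there. The regions are chr5:138465349-138465478 (plus strand) for EGR1, chr5:172771196-172771325 (minus) for DUSP1, chr22:38201864-38201993 (plus) for MAFF, chr19:48872291-48872420 (plus) for PPP1R15A and chr11:90223050-90223179 (minus) for CHORDC1.
EGR1: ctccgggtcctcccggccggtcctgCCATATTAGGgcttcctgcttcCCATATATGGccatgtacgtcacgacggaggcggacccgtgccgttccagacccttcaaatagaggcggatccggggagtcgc
DUSP1: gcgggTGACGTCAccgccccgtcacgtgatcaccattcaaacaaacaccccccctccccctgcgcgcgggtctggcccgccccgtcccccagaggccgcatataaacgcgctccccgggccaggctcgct
MAFF: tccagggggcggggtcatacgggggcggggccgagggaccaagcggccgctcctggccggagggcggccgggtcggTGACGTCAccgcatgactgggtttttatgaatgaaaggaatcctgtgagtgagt
PPP1R15A: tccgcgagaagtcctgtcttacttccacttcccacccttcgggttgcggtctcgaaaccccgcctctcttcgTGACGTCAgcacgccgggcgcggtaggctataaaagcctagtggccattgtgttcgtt
CHORDC1: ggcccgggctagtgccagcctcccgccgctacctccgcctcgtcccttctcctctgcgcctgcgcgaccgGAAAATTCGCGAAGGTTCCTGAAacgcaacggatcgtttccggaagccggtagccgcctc

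The 2 CArG boxes of EGR1 start 105 and 83 bases before the start site. Over the whole table of 27305 RefSeq windows of 300 bases (250 before and 50 after the start), 1.29% held a CArG box, 1.98% the CRE, 4.92% the AP-1 site TGACTCA and 0.49% a heat-shock element, on either strand. Windows were found for 11283 tested genes, and for 260 of those called higher by a log2 of at least 1. Of these 260, 1.54% held a CArG box against 1.01% of tested genes, and 1.92% the CRE against 3.34%. The AP-1 site was in 6.54% against 2.88%, and a heat-shock element in 1.15% against 0.34%. Of all 647 rises of this size, 300 passed the low-count filter only with the arsenite libraries counted in. A mean under 5 CPM over the 18 cytosol libraries was found for 565. The motif shares were not recomputed without such genes. Among the AP-1 list's called genes, 2 of 7 windows held the CRE, and among the called genes of MAP kinase feedback 2 of 8. In the HSF1 list 4 of 19 tested windows held a heat-shock element, those of CHORDC1, DNAJA1, HSPA8 and SERPINH1. Of these only CHORDC1 was called higher, and SERPINH1 was called lower. In the EGR list 2 of 12 tested windows held a CArG box, those of EGR1 and SRF, and SRF was not called. These counts describe letters in a window and show no binding.

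Genes of mRNA decay and inflammatory feedback were also among the rises. ZFP36, which binds AU-rich elements and promotes decay of early-gene mRNAs, rose from 1.38, 1.20 and 1.54 CPM to 10.5, 12.2 and 7.52, a log2 fold change of 2.77 (edgeR adjusted p 3.13e-07). Of 7 tested AU-rich-element binders 4 were called higher and none lower, the others being its relatives ZFP36L1 (0.89) and ZFP36L2 (0.68) and TIAL1 (0.79), given as log2 fold changes. The call of ZFP36L2 was lost without tetracycline replicate 2. TIAL1, the paralog of TIA1, had 45.5, 31.2 and 43.8 CPM without arsenite and 88.2, 70.3 and 63.1 with it, and 68.9 in untreated cells. Arsenite thus coincided with a level close to the one without tetracycline, with a log2 difference of 0.03 between these groups (edgeR adjusted p 0.865). In the NF-kappaB list 4 of 13 genes (30.8%) were called higher and 1 (7.69%) lower, against 14.1% and 14.8% over all tested genes. The rises were NFKBIZ (7.58 to 23.1 CPM), the inhibitors NFKBIA (21.6 to 38.8) and TNFAIP3 (6.42 to 10.5), and NFKB1. BIRC3 was called lower (log2 fold change -0.69). The cytokine genes IL6, TNF and CCL2 had at most 3 counts in any of the 6 libraries.

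Chaperone, antioxidant and metal-response genes are the known targets of the factors HSF1, NRF2 and MTF1. In the list of HSF1 targets 6 of 21 genes (28.6%) were called higher and 1 (4.76%) lower, against 14.1% and 14.8% over all tested genes. The median log2 fold change was 0.00. BAG3, a cochaperone of HSP70, rose from 28.9, 17.8 and 20.3 CPM to 50.2, 42.0 and 41.4, a log2 fold change of 0.92 (edgeR adjusted p 0.00029). DNAJB1, an HSP40, rose from a mean of 74.9 to 134 CPM, and CHORDC1, an HSP90 cochaperone, from 50.3 to 74.9. HSPA1B, an inducible HSP70 gene with a near-identical copy in HSPA1A, had 411, 450 and 437 CPM without arsenite and 578, 601 and 674 with it, beside 681 in untreated cells. The collagen chaperone SERPINH1 was the gene called lower (log2 fold change -0.41). Without tetracycline replicate 3 the calls of HSPA1A and HSPH1 were lost, and without tetracycline replicate 2 that of SERPINH1. HSPA6, a strictly inducible HSP70 gene, lies within another gene's span and was listed at 0.

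Of 19 tested NRF2 targets 2 were called higher and 2 lower (median 0.03). ME1 (malic enzyme) and NFE2L2 (NRF2 itself) rose, with log2 fold changes of 0.49 and 0.39, and TXN (thioredoxin) and GSR (glutathione reductase) fell, with -0.38 and -0.32. These shares are below the 14.1% and 14.8% over all tested genes, and the calls of NFE2L2, TXN and GSR were lost without tetracycline replicate 2. Of the metal-response list only 3 of 9 genes had enough counts to test. MT2A, a metallothionein, went from 6.77, 11.2 and 10.3 CPM to 13.3, 18.4 and 12.9 (log2 fold change 0.56, edgeR adjusted p 0.0213), and SLC30A1, a zinc exporter, from a mean of 71.5 to 98.5. Both calls were lost without tetracycline replicate 1, without arsenite replicate 2 and when only the 6 libraries were fitted, at edgeR adjusted p-values of up to 0.132 and 0.146 over the alternatives.

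Among 20 tested genes of the integrated stress and unfolded protein responses 4 rose and 3 fell (median -0.08), or 20.0% and 15.0%, near the 14.1% and 14.8% over all tested genes. PPP1R15A, which encodes the stress-induced cofactor that dephosphorylates eIF2alpha, rose from 32.9, 40.8 and 38.2 CPM to 60.0, 82.5 and 62.0, and DDIT3 (CHOP) from a mean of 21.3 to 36.2. HERPUD1 and CHAC1 were the other rises (0.37 and 0.53), and XBP1, DNAJC3 and ATF4 the falls (-0.31, -0.34 and -0.29). CHAC1 and ATF4 lost their calls in 6 and 5 of 12 alternatives, XBP1 in 5 and DNAJC3 in 4, and each lost it without arsenite replicate 1. In the list of p53 and growth arrest, 5 of 17 rose, led by GADD45B (log2 fold change 0.92) and PLK2 (0.77), and 2 fell, PMAIP1 (-0.52) and CCNG1 (-0.37), the latter not called without tetracycline replicate 2. The shares were 29.4% and 11.8%, against 14.1% and 14.8% over all tested genes, and the median of the list was 0.07.

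Several kinases that phosphorylate splicing factors rose. Of 9 tested CLK and DYRK genes 6 were called higher and none lower (median 0.35). CLK2 had 27.7, 33.7 and 29.8 CPM without arsenite and 60.3, 53.7 and 63.9 with it, a log2 fold change of 0.87 (edgeR adjusted p 9.49e-06), and CLK1, CLK3 and CLK4 had 0.51, 0.35 and 0.48. DYRK4 had 1.05. Of 14 SR-protein genes 2 (14.3%) were called higher and 1 lower, with a median of -0.01, a share like the 14.1% over all tested genes, and 0 were called higher without tetracycline replicate 2. Fitting only the 6 libraries gave 3 calls among the kinases.

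Of 17 tested genes for stress granule proteins 4 were called higher and none lower (median 0.10), namely TIAL1, ATXN2 (0.72), UBAP2L (0.53) and USP10 (0.20). The higher share was 23.5%, against 14.1% over all tested genes. USP10 lost its call in 6 of 12 alternatives, among them that without tetracycline replicate 2. For P-body and mRNA decay factors the count was 6 higher and 2 lower of 30 (median 0.23). These shares of 20.0% and 6.67% stand beside 14.1% and 14.8% over all tested genes. PAN3, a subunit of a deadenylase, had 0.60 and TOB2, which recruits deadenylases, 0.57. The P-body count ran from 2 to 11 higher over the alternatives and was 3 without tetracycline replicate 2.

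**Figure D3:**
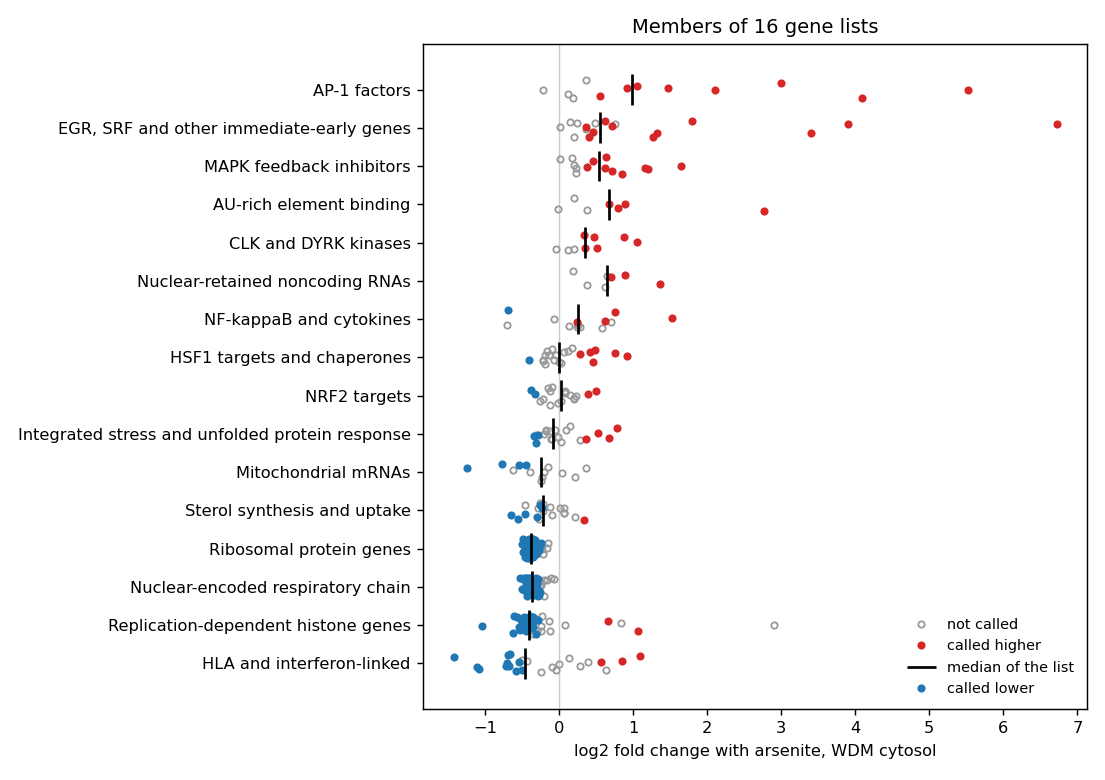
Each point is 1 tested member of 1 of 16 gene lists, placed by its log2 fold change with arsenite in WDM cytosol, with filled points called by edgeR at an adjusted p under 0.05 and a black bar at the list's median. AP-1 factors reach 5.52 and EGR1 6.73, whereas ribosomal protein and respiratory chain genes form narrow groups around -0.38 and -0.37.

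The falls were smaller and spread over many abundant housekeeping mRNAs. Of 74 tested ribosomal protein genes 70 were called lower and none higher, with a median log2 fold change of -0.38 and a range from -0.50 (RPS29) to -0.15 (RPL28). Their summed level was 55000, 59440 and 46680 CPM without arsenite and 40840, 42530 and 48270 with it, so tetracycline replicate 3 lay below arsenite replicate 3. RPS2, a member of the small subunit, had 1684, 1791 and 1394 CPM without arsenite and 1305, 1252 and 1469 with it, and its groups overlapped as well. RPS2 was not called without that replicate 2 of the tetracycline group. Without tetracycline replicate 2 the list had 10 calls, with only the 6 libraries fitted 3, and with library size alone 60. Retained nuclear RNAs moved the opposite way in the same libraries, and the part of library composition in this fall was not tested.

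Genes of the nuclear-encoded respiratory chain, which build the complexes that make ATP in mitochondria, had 50 of 60 calls lower and none higher, with a median of -0.37. COX6C, a subunit of cytochrome oxidase, had 117, 142 and 114 CPM without arsenite and 83.0, 90.7 and 101 with it, a log2 fold change of -0.53 (edgeR adjusted p 0.00616), and its groups did not overlap. This list had 7 calls without tetracycline replicate 2 and 8 with only the 6 libraries fitted. Of 38 translation factors 11 were called lower and 2 higher, and none of the 11 was called under those alternatives. The rises were EIF4A2, a translation helicase that went from 146, 189 and 164 to 271, 282 and 312 CPM, and EIF4G3 (0.56). EIF4A2 stood at 376 CPM in untreated cells. The call of EIF4G3 was lost without tetracycline replicate 2, among other alternatives.

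Replication-dependent histone genes, whose mRNAs lack a poly(A) tail and were kept by the total-RNA method, had 36 of 50 calls lower and 2 higher (median -0.40). H4C11 had 15.1, 21.4 and 15.5 CPM without arsenite and 8.27, 8.71 and 9.85 with it, a log2 fold change of -1.04 (SE 0.141, edgeR adjusted p 5.40e-05). H4C2 had -0.62. Histone genes have near-identical copies, so the split between them is uncertain. The list had 14 lower calls without tetracycline replicate 2 and 14 with only the 6 libraries fitted.

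Mitochondrially encoded mRNAs did not move together. Of 13 tested 4 were called lower and none higher, MT-ND6 (log2 fold change -1.24), MT-ND1 (-0.77), MT-ND4 (-0.54) and MT-CO3 (-0.45). MT-ND6, the mRNA of the light strand, had 4.64, 5.18 and 6.04 CPM without arsenite and 2.23, 2.33 and 2.71 with it. MT-CO1, the most abundant, had 690, 607 and 697 CPM against 949, 732 and 790, a difference that did not pass the test (log2 fold change 0.22, edgeR adjusted p 0.214).

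Genes of antigen presentation and interferon response were among the falls. Of 24 tested 11 were called lower and 3 higher, with a median of -0.46. HLA-B, a class I chain, had 63.7, 87.4 and 79.5 CPM without arsenite and 50.6, 50.1 and 50.6 with it, a log2 fold change of -0.70 (SE 0.0937, edgeR adjusted p 4.62e-05). HLA-C had -0.67, the class I light chain B2M -0.58, and the peptide transporter TAP1 -0.72. The members of class I resemble each other in sequence, so reads may be divided among them. BST2 (tetherin), from 4.64, 10.2 and 7.04 to 4.53, 0.955 and 3.46 CPM, had the largest fall of the 12 lower genes named by size (-1.42), with groups that just separate, and its edgeR adjusted p rose from 0.00635 to 0.0535 when only the 6 libraries were fitted. The rises in this list were ISG20 (1.10), IRF1 (0.84) and ISG15 (0.56). The count of lower genes was 9 without tetracycline replicate 2.

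The other lower genes named by size were of various kinds. LAMA1, a laminin chain of basement membranes, had 121, 110 and 132 CPM without arsenite and 79.1, 43.5 and 73.6 with it, a log2 fold change of -0.98 (edgeR adjusted p 9.00e-05). EMILIN3, CGREF1 and SERPINF1, which encode secreted proteins, had -0.90, -1.02 and -0.92, ACVRL1, a receptor of the TGF-beta family, -1.05, and HLA-DMB and ICAM4 -1.08 and -1.07. All exons of ICAM4 lie opposite those of another gene. Of 20 genes of sterol synthesis and uptake 6 were called lower and 1 higher, with INSIG1, the sterol-sensitive retention protein, at 291, 321 and 270 CPM against 199, 188 and 213. Without tetracycline replicate 2 the list had 3 lower and 0 higher calls, and with library size alone 3 lower. SQLE, a synthesis enzyme, had -0.55. Of 15 early targets of BMP and Notch signalling 6 were called lower, among them ID2 (-0.53) and JAG1 (-0.48), and 1 was called higher, ID1 (1.04). Without tetracycline replicate 2 the call of ID2 was lost. Also among the lower genes named by size were the mitochondrial tRNA MT-TP (-0.93) and the transporter SLC29A4 (-0.90).

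The other large group of rises was of weakly counted genes, many of them noncoding. Long noncoding RNAs (lncRNA) made up 337 of the 647 genes called higher by a log2 of at least 1, although they were 2575 of the 16670 tested. Of these 2575, 572 (22.2%) were called higher and 93 (3.61%) lower, with a median log2 fold change of 0.29, against 1621 (12.4%) and 2293 (17.5%) of 13068 protein-coding genes. A mean under 5 CPM over the 18 cytosol libraries was found for 565 of the 647. Of the 647, 300 passed the low-count filter only with the arsenite libraries counted in, so their rise itself brought them into the test, and 347 (169 of them lncRNAs) also passed on the 12 cytosol libraries without arsenite. Genes spanning over 100 kb were called higher in 28.0% and lower in 6.09% of cases, and those under 5 kb in 5.74% and 17.3%. Across 16670 genes Spearman's rho between log2 fold change and gene span was 0.309, and between log2 fold change and the longest transcript 0.114 (16631 genes), given as a description because genes are not independent. Of the 16670 genes, 15867 passed the filter on the 12 libraries without arsenite. The shares by gene type and span and the rho values were not recomputed for those genes alone.

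RNAs retained in the nucleus were among the rises. Of 7 tested 3 were called higher and none lower, and the median was 0.65. KCNQ1OT1, an imprinted antisense transcript, had 9.79, 7.03 and 10.0 CPM without arsenite and 29.7, 24.7 and 19.3 with it, a log2 fold change of 1.37 (edgeR adjusted p 0.000178). NUTM2A-AS1 and FTX had 0.70 and 0.90. NEAT1, the scaffold of paraspeckles, had 168, 63.8 and 154 CPM against 266, 161 and 216, and MALAT1, a speckle RNA, 472, 258 and 392 against 564, 370 and 431. Neither passed the test (log2 fold changes 0.65 and 0.19, edgeR adjusted p 0.164 and 0.624). In both, tetracycline replicate 2 was the lowest library and the groups overlapped. The summed level of this list moved with arsenite, at 511 to 976 CPM without it and 985 to 1380 with it, and the part of nuclear RNA in the cytosol fraction in the other results was not tested. The call of FTX was lost in 6 of 12 alternatives, among them those without tetracycline replicate 2 or 3 or arsenite replicate 1 or 2.

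The rises among weakly counted genes differed in frequency with position. For each gene the nearest gene of at least 5 CPM on the same strand was found, and genes that overlap such a gene were left out. Of 1177 weakly counted genes with an expressed gene ending under 20 kb upstream, 264 (22.4%) were called higher by a log2 of at least 1, against 251 of 3604 (6.96%) of the others. These shares include genes that entered through the arsenite libraries, where a rise decides membership. Among genes that passed the filter on the 12 libraries without arsenite, a setting added after seeing the data, the shares were 103 of 888 (11.6%) and 135 of 3151 (4.28%), and by distance 12.5%, 10.8%, 4.86% and 4.18%. Over all 4781 weakly counted genes the share by distance was 21.4% under 5 kb, 23.3% at 5 to 20 kb, 9.71% at 20 to 50 kb and 6.43% beyond. An expressed gene downstream on the same strand gave no such gradient, with 9.89%, 7.68%, 9.84% and 11.4% in the same classes, nor did one upstream on the opposite strand, with 9.74%, 10.0%, 10.8% and 11.0%. The upstream gradient was seen for lncRNAs (23.8%, 28.7%, 15.1% and 10.2%) and for protein-coding genes (22.3%, 19.9%, 6.16% and 4.13%). The share for genes within 20 kb ran from 17.1% to 24.3% over the other alternatives that test against no change. That of the remaining genes ran from 4.72% to 8.63%. The filter without arsenite libraries, at 11.6% and 4.28%, lies outside these ranges. In the WT line the share by distance was 19.6%, 21.3%, 11.1% and 7.03%. The WT libraries are separate, but this share too includes genes that entered through the arsenite libraries. A WT share under the filter without arsenite libraries was not computed. Among genes of at least 5 CPM the shares in WDM were 1.15%, 0.684%, 0.506% and 0.698%.

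**Figure D4:**
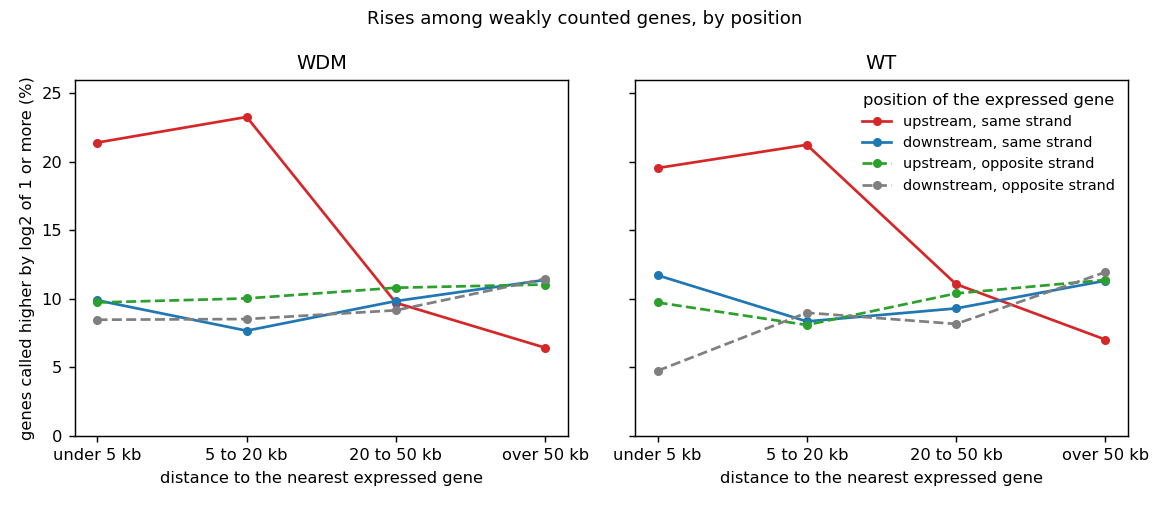
Share of weakly counted genes (mean under 5 CPM over 18 cytosol libraries) called higher by a log2 of at least 1 with arsenite, by distance in kb to the nearest expressed gene and by that gene's position, for WDM (left) and WT (right), including genes that passed the low-count filter only through the arsenite libraries. The line for an expressed gene upstream on the same strand is at 21.4% and 23.3% below 20 kb and at 6.43% beyond 50 kb in WDM, and goes from 19.6% to 7.03% in WT, while the others stay between 4.75% and 11.9%.

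Among the protein-coding genes of this kind with the largest rises, 7 are described here (chosen after their values were seen), and they included genes of tissues other than kidney. Each of these 7 passed the filter only through the arsenite libraries, so they illustrate the positions and are no support for the shares. CLCN1, the chloride channel of skeletal muscle (chr7:143316111-143352083), had 0, 0 and 1 counts without arsenite and 25, 23 and 9 with it, and begins 8.41 kb beyond CASP2. SLC6A13, a GABA and taurine transporter, had 8, 3 and 5 counts and then 97, 101 and 50, 17.2 kb beyond KDM5A. MASP2, a complement protease of liver, had 3, 3 and 4 counts and then 42, 47 and 22, 7.34 kb beyond SRM. EFCAB12, PON3, HK3 and TRIM59 followed MBD4, PON2, UIMC1 and KPNA4 at 2.30, 8.49, 5.66 and 9.23 kb. The expressed genes before these 7 had log2 fold changes from -0.42 (PON2) to 0.46 (CASP2), and KPNA4 (0.34) and PON2 passed the test. The deposited values are counts per gene, so they do not show where within a gene the reads lie.

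Of 13 Kruppel-like factors 3 (23.1%, against 14.1% over all tested genes) were called higher and none lower. They were KLF4 (0.75), KLF5 (0.57) and KLF6 (0.49), the median of the list was 0.25, and KLF6 was not called without tetracycline replicate 2. Of 461 zinc-finger (ZNF) genes, many of which encode repressors, 83 were called higher and 8 lower, with a median of 0.16. The higher share of 18.0% is near the 14.1% over all tested genes, whereas the lower share of 1.74% is below the 14.8% over all tested genes. The count of higher genes was 50 without tetracycline replicate 2, 27 with only the 6 libraries fitted and 138 with library size alone. Among 19 genes of RNA polymerase II and elongation control 4 (21.1%) rose and 1 (5.26%) fell (median 0.09), against 14.1% and 14.8% over all tested genes. ELL2, an elongation factor, was at 0.47. Of 7 genes linked to polymerase III, 5 RNAs and the factor genes BRF1 and BRF2, 2 rose and 1 fell (median 0.21). These shares are 28.6% and 14.3%, against 14.1% and 14.8% over all tested genes. The vault RNA VTRNA1-3 went from 3.76, 3.24 and 2.96 to 8.33, 9.25 and 8.80 CPM. The other rise, VTRNA1-2 (2.32), passed the low-count filter only through the arsenite libraries, as did VTRNA1-1, which was not called. The call of VTRNA1-2 was lost without tetracycline replicate 3 and without arsenite replicate 2. Of 12 host genes of small nucleolar RNAs 4 (33.3%) rose, led by SNHG12 (0.83), and 3 (25.0%) fell (median -0.06). Over all tested genes the shares were 14.1% and 14.8%. Of 29 proteasome subunits 5 fell and 1 rose (median -0.15), and none of the 5 was called without tetracycline replicate 2. The lower share of 17.2% is near the 14.8% over all tested genes. Of 14 glycolytic enzymes 1 (PFKL) was called lower and none higher (median -0.23), and the lower count ran from 0 without tetracycline replicate 2 to 7 without tetracycline replicate 3.

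Besides the genes above and SLC6A13, the 15 higher genes named by size were LINC02798, LINC00862 and IDI2-AS1, which are noncoding, and FAM71F2, AKNAD1 and MYH15. LINC02798 rose from a mean of 0.544 to 5.25 CPM and MYH15, a myosin heavy chain, from 3.62 to 11.7.

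The WT line was used to see whether these changes went with the mutation. There 4838 genes were called with arsenite, and for 3361 the direction was shared by WDM and WT calls, which is 70.0% of the WDM calls and 69.5% of the WT calls, with none called in opposite directions. Across genes the log2 fold changes had a Pearson correlation of 0.823, as a description. EGR1 and FOS had log2 fold changes of 6.07 and 4.93 in WT, IER2 1.77 and DUSP1 1.61. In the test of the difference between lines no gene of 16670 (0%) was called, with 331 at an unadjusted p under 0.05. DESeq2 also called 0, with 172 at an unadjusted p under 0.05. Both numbers are below what unadjusted p-values give on average when no gene differs. With 3 libraries per group, 0 calls do not show that the lines respond alike. The difference was 0.66 for EGR1 and 0.60 for FOS (95% intervals from -0.10 to 1.41 and from -0.23 to 1.42). Of the 647 larger rises in WDM 467 were called higher in WT, and of the 53 larger falls 17 were called lower. The genes with the smallest p in this test were COL5A2 (-0.63 in WDM, 0.03 in WT), NFIL3 (0.49 and -0.18) and F12 (-0.53 and 0.31), each with an edgeR adjusted p of 1 for the difference. The WDM call of F12 was itself lost without tetracycline replicate 2.

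**Figure D5:**
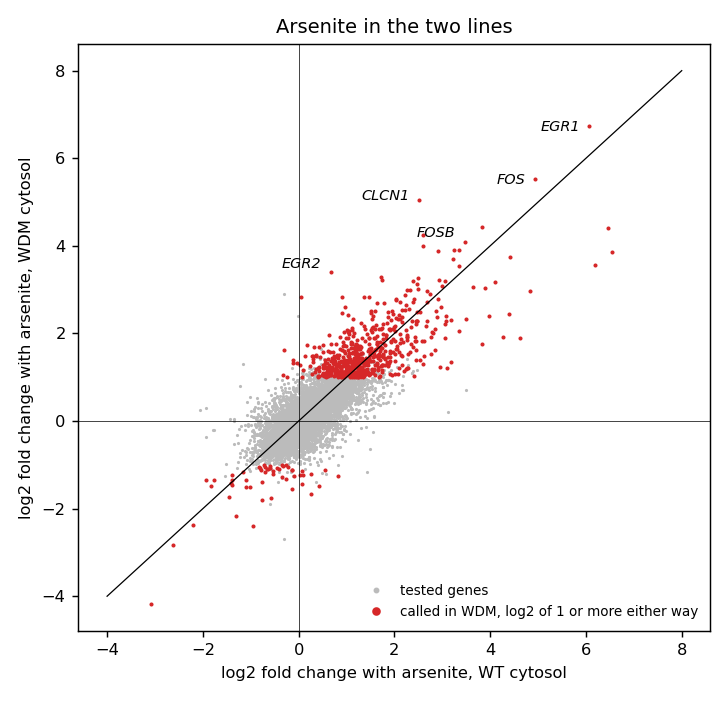
Log2 fold change with arsenite in WT cytosol (horizontal) and in WDM cytosol (vertical) for 16670 tested genes, with those called in WDM at a log2 of at least 1 either way in red and the line of equal values in black. The genes scatter along that line with a Pearson correlation of 0.823, and EGR1, at 6.07 in WT and 6.73 in WDM, lies at the upper end.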

How the data were processed

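RNA-seq of 30 libraries was deposited as 1 table of counts per gene, which is in raw, whole-number units and was made by the authors. The submitters' processing notes name Trimmomatic, STAR, Picard, featureCounts and GRCh38. Versions, strand setting, annotation release and the handling of overlapping genes are not given in the sources used here. Gene positions came from GENCODE release 44, with 60463 of 60664 identifiers matched. Groups were taken from the labels.

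The 18 cytosol libraries were fitted together in 6 groups with edgeR 4.0.16 (R 4.3.3), after filterByExpr (minimum count 10, minimum total 15) left 16670 genes. TMM scaling, the quasi-likelihood test and Benjamini-Hochberg adjustment were used, with calls at an adjusted p under 0.05. The difference between lines was an interaction term. The biological coefficient of variation was 0.103. The code was tested on simulated data. CPM are counts scaled to the library total.

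Named genes were the 15 higher and 12 lower calls with the largest fold change among genes whose groups do not overlap and whose higher group averaged 5 CPM or more, the 3 with the smallest interaction p, and members of gene lists. The members and lists were chosen with earlier results of these data known. The distances to expressed genes, and a filter on the 12 libraries without arsenite, were added after seeing the data. Other settings tried were a replicate block, RLE factors, scaling by library size alone, no filter, glmTreat against a log2 fold change of 0.5, a fit of only the groups compared, DESeq2 1.42.0, and each library left out. Promoter windows were taken from RefSeq (GRCh38.p14). The 12 stress granule libraries were not analysed here. Results for a few genes are not reported here.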

Additional observations from a re-analysis of the deposited data

How the results depend on the processing

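In WDM cytosol 4804 genes were called, 280 against a log2 fold change of 0.5 (glmTreat), 1921 with only the 6 libraries fitted, and 2490 to 5251 when each library was left out, the lowest without tetracycline replicate 2 and 2920 without arsenite replicate 1. Of the 4804 calls, 2404 were made in the same direction without tetracycline replicate 2, 1898 with only the 6 libraries and 4385 with DESeq2, and none was made in the opposite direction under any of the 13 alternatives. In WT cytosol 4838 genes were called, 264 with glmTreat, 2737 with only the groups compared and 2440 to 7204 with each library left out. The interaction gave 0 calls under each of these alternatives. The log2 fold change of MALAT1, not called, ran from -0.0081 (without tetracycline replicate 2, a reversal) to 0.40 (without tetracycline replicate 1). The cause of these changes was not tested, apart from the smaller number of libraries in some fits.

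With the replicate block 5423 genes were called in WDM, 5643 in WT and 0 for the interaction. Deviations of libraries with the same number correlated at 0.32, 0.11 and -0.07 in WDM and at 0.21, 0.05 and 0.26 in WT. Those of libraries with different numbers ran from -0.37 to 0.28 in WDM and from -0.26 to 0.09 in WT. These values do not settle whether the numbers pair the libraries, and the main fit did not use the replicate number.

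Counting only the 12 libraries without arsenite in the low-count filter, the share of weakly counted genes called higher by a log2 of at least 1 went from 22.4% to 11.6% with an expressed gene under 20 kb upstream and from 6.96% to 4.28% without.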
